A study of Mus musculus with 24 samples.

Results

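Somatostatin (Sst) interneurons of the motor cortex were taken as the cells with at least 5 UMIs of Sst among the GABAergic cells of the motor cortex libraries. A UMI is a molecular tag that counts 1 captured RNA molecule. A cell barcode had to hold at least 1000 UMIs and 500 detected genes, with at most 20% mitochondrial UMIs. A GABAergic cell had to hold at least 2 UMIs of Gad1 and Gad2 together, which make the enzyme for GABA, and at most 1 UMI of Slc17a7, the vesicular transporter of glutamatergic neurons. Its Sst UMIs had to exceed both its Pvalb and its Vip UMIs. The cells were thus selected on measured UMIs of Sst, Gad1, Gad2, Slc17a7, Pvalb and Vip. The rule kept 560 cells of 4741 GABAergic cells and 50361 passing cells of motor cortex, and of 103715 passing cells in 23 libraries of the series. One dorsal striatum library was not analysed here.

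All motor cortex mice were Fos-CreER::Ai9, in which a recombinase driven from Fos, switched on by 4-hydroxytamoxifen (4-OHT), turns on the tdTomato reporter in recently active cells. Mice learned a forelimb reaching task for 2 days (early) or 8 days (late) before labelling. Control mice were given 4-OHT without training. Tissue was taken 3 days after labelling in every group. Each library held 1 hemisphere pooled from 2 mice, so 12 libraries made 6 pools, 2 for each stage. The pools are called control 1 and 2, early 1 and 2 and late 1 and 2. Trained pools had a contralateral and an ipsilateral library, and control pools a right and a left. The pool was the unit of replication, with only 2 pools a stage. In the stage comparisons the p-values rest on the spread between pools. Where both sides came from the same pools, the pool was a block. The p-values there rest on the spread of the differences within pools.

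Somatostatin interneurons release GABA together with peptides and arise from the medial ganglionic eminence, a lineage they share with parvalbumin interneurons. Many of them are Martinotti cells, whose axons reach the outer cortical layers and inhibit the distal dendrites of pyramidal neurons. In motor cortex they are known for controlling dendritic inhibition while movements are learned. A rarer kind marked by Chodl and Nos1 sends long axons across the cortex.

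The label was first checked against marker genes that took no part in the choice. Of the 560 cells, 95.7% held a UMI of Slc32a1, the vesicular GABA transporter, 92.1% of Satb1, 70.5% of Lhx6 and 64.6% of Sox6. The last 3 are transcription factors of the medial ganglionic lineage. Grin3a, an NMDA receptor subunit, was detected in 83.4% of the cells, Npy in 79.5% and Elfn1 in 60.9%. Lhx6 was detected in 63.6% of Pvalb cells, 4.14% of Lamp5 cells and 0.0584% of Vip cells. Npy was detected in 41.4% of Pvalb, 34.5% of Vip and 96.1% of Lamp5 cells, so it does not tell Sst from Lamp5 cells. The rule itself limited Pvalb, Vip and Slc17a7, so their low levels are no check of the label. As a description, 90.9% of the Sst cells had no Pvalb UMI, 96.8% no Vip UMI and 94.6% no Slc17a7 UMI. The caller of doublets marked 28 of the cells (5%), which were kept.

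The libraries differed in depth and in barcode list. Their totals ran from 5260446 to 30470621 UMIs, with 469 to 7087 passing cells. The labels name 2 versions of the capture kit without saying which library had which. Pools control 1 and late 1 shared 173 barcodes with each other, or 1.35 per 1e6 pairs of barcodes. Between pools of the remaining 4 the rate was 0.211 to 0.281, with 124 shared barcodes, and between these and the first 2 it was 0.0065 to 0.0403, with 20. Control 1 and late 1 therefore form barcode class A and the others class B, and the class was a term in each stage comparison. The labels also give a batch, which control 1 shares with late 1 and early 1 with control 2, while early 2 and late 2 are each the only motor cortex pool of theirs.

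The promoter of Sst is shown because its transcript defines these cells and because the gene is a textbook target of activity-dependent transcription through a cAMP response element. The stretch from 250 bases before to 50 bases after the start site is RefSeq sequence on GRCm38.p6, chr16:23890795-23891094, minus strand, printed 5′ to 3′. Capitals mark the palindrome TGACGTCA, the full cAMP response element, which a search found once, starting 48 bases before the start site.

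Sst: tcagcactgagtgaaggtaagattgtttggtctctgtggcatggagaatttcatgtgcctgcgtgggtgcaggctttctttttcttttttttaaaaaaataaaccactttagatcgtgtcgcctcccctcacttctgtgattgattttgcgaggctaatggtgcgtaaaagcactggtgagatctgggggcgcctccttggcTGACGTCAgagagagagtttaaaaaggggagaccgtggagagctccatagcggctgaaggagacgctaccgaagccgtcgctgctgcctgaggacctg

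Of 32851 RefSeq promoter windows of this length, 588 (1.79%) held TGACGTCA on either strand, the palindrome reading the same on both. The windows of Npy, Cort, Pdyn, Chodl, Nos1, Crhbp and Tac1, whose transcripts are described here, held no match. A match is a description of the letters and not a measured binding site.

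Sst itself, used by the rule, ran from 6 to 1266 UMIs a cell, with a median of 104.5. The cells held a median of 8513 UMIs and 3626.5 genes. Near the threshold, 11 cells held 5 to 9 Sst UMIs, and 7 GABAergic cells with 3 or 4 were left out. Another 4 GABAergic cells with at least 5 Sst UMIs were left out because Pvalb or Vip was as high. Of the 4181 GABAergic cells outside the class, 4006 held no Sst UMI. Summed over cells, Sst stood at 17078 counts per 1e6 UMIs (CPM) in the Sst cells, 19.5 in Pvalb cells, 4.88 in Vip cells and 4.93 in Lamp5 cells. A single Sst UMI was seen in 1.76% of microglia-like cells (median 1867 UMIs) and 3.84% of glutamatergic-like cells (median 8338 UMIs), which gives the level of free RNA. At least 5 UMIs were held by 0.00910% and 0.00631% of them.

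The cells with the most Sst also held the most Npy, which encodes neuropeptide Y. Npy stood at 132 CPM in the 11 cells with 5 to 9 Sst UMIs, 1776 CPM in the 101 cells with 20 to 49 and 20781 CPM in the 38 cells with 500 or more. The share of cells with at least 2 Chodl UMIs went from 0% to 50% over the same bins. Median depth was 5425 UMIs in the lowest bin, 5527 in that of 20 to 49 and 21128.5 in the highest, and its part in the Chodl share was not tested.

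Sst cells made up between 9.90% and 13.8% of the GABAergic cells of a pool. The share was 11.4% in control 1 (95% Wilson interval 9.05 to 14.3), 11.6% in control 2 (9.62 to 14.0), 9.90% in early 1 (8.02 to 12.2), 13.8% in early 2 (11.7 to 16.1), 13.1% in late 1 (10.9 to 15.6) and 10.7% in late 2 (8.76 to 13.0). The intervals cover counting error only. The early pools lay on either side of both controls, and so did the late pools. The mean share was 11.8% ± 2.74 (SD, n = 2) in early, 11.9% ± 1.67 in late and 11.5% ± 0.151 in control pools (exact permutation test, two-sided, p = 1 for each pair of stages, smallest possible 0.333). Within the shared batches, late 1 stood above control 1 and early 1 below control 2 in this share, with 1 pool of each stage and no test. The share of all passing cells differed from this. There both late pools (0.747% and 1.11%) lay below both controls (1.32% and 1.22%). The exact permutation test gave p = 0.333, the smallest possible. The early pools (1.05% and 1.56%) lay on either side of the controls. Sst summed over the class was 19306 CPM in control 1, 13617 in control 2, 20029 in early 1, 17353 in early 2, 15379 in late 1 and 17594 in late 2, with no stage apart from the others. Gad1, the main GABA-synthesising enzyme, stood at 834 and 840 CPM in the 2 pools of barcode class A and at 1138 to 1348 CPM in the other 4. Both genes served in the choice and were not tested.

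**Figure D1:**
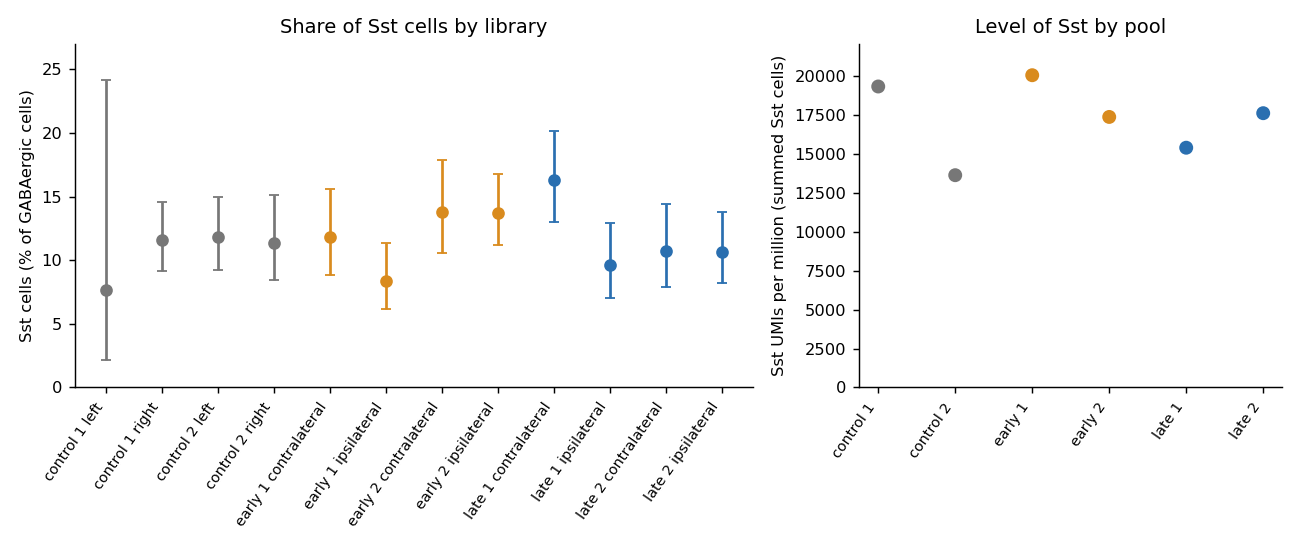
Left, share of Sst cells among GABAergic cells (percent) in each of the 12 libraries, with 95% Wilson intervals as bars (grey control, orange early, blue late). Right, Sst counts per 1e6 UMIs in the summed Sst cells of each of the 6 pools, between 13617 and 20029 CPM, where the stages overlap.

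The Sst cells were set against 3 other interneuron classes of the same pools. These were 220 Pvalb cells, which are mostly fast-spiking basket cells, 1713 Vip cells, which mainly inhibit other interneurons, and 942 Lamp5 cells, which include neurogliaform cells. Each needed at least 3 UMIs of its marker. UMIs were summed per pool and class, and edgeR's quasi-likelihood test was run with the pool as a block, adjusted by Benjamini-Hochberg over 11429 genes. Levels below are CPM after scaling by edgeR's TMM factors, given as the lowest, median and highest of the 6 pools, and differences are log2 fold changes ± SE. The SE was derived from the test, as the size of the change divided by the square root of its F statistic. The genes of the rule and Lamp5 were left out of the tests. The other genes come from the same cells, so genes that accompany Sst were bound to differ with it.

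Against Pvalb cells 2043 genes were higher in Sst cells (17.9% of those tested) and 1773 were lower (15.5%). Peptide genes set the classes apart. Of the 14 listed neuropeptides, 11 could be tested, 7 were higher in Sst cells and 3 were lower, with a median log2 difference of 4.52 beside 0.03 over all genes. Npy stood at 6433, 10625 and 11481 CPM in Sst cells and at 208, 352 and 976 CPM in Pvalb cells. The pools did not overlap, and the log2 difference was 4.52 ± 0.14 (adjusted p = 8.16e-31). Cort, whose peptide cortistatin is a close relative of somatostatin, had 659, 784 and 1255 CPM in Sst against 131, 204 and 610.3 CPM in Pvalb cells (1.69 ± 0.12, adjusted p = 1.75e-17). Penk, the enkephalin precursor, was higher by 5.62 ± 0.36. Pdyn, the dynorphin precursor, had 1117 UMIs in Sst cells and 1 in Pvalb cells, a ratio per UMI of 455 (counting interval 81.6 to 18006). Crh, corticotropin-releasing hormone, had none in Pvalb cells and was at least 28.3-fold higher, taking 3 counts over the group as the floor. That floor counts UMIs, and only 10.2% of Sst cells held a Crh UMI. Crhbp, whose product binds that hormone, was higher by 3.63 ± 0.14. In the other direction, Cck, the cholecystokinin precursor, stood at 6.44, 22.4 and 59.0 CPM in Sst and at 350.1, 475 and 789 CPM in Pvalb cells. Tac1, the substance P precursor, was lower by -3.89 ± 0.19 and Pthlh by -5.98 ± 0.38.

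Elfn1, a postsynaptic organiser that sets the release properties of excitatory inputs onto Sst cells, stood at 151, 177 and 235 CPM against 4.45, 17.0 and 23.1 CPM in Pvalb cells (3.71 ± 0.20, adjusted p = 3.72e-21). The glutamate receptor subunit Grin3a was higher by 4.85 ± 0.16. Of the 23 listed glutamate receptors, 22 could be tested. Of these, 13 were higher and 2 lower, with a median of 0.58, the lower count being below the 15.5% of all genes. The GABA-A receptors went the other way, 3 higher and 6 lower of 12, with a median of -0.41, the higher count being near the 17.9% of all genes. Gabrd, an extrasynaptic subunit, was lower by -3.41 ± 0.12 and Erbb4, the neuregulin receptor, by -2.37 ± 0.11.

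Channels divided the 2 classes in both directions, with 9 higher and 13 lower of 29, beside 17.9% and 15.5% over all genes. Kcnc1, the Kv3.1 channel of fast-spiking cells, had 242, 290.1 and 326 CPM in Sst against 1122, 1219 and 1409.7 CPM in Pvalb cells (-2.10 ± 0.08). Of the 12 listed Pvalb interneuron genes, 11 could be tested and 10 were lower, among them the synaptotagmin Syt2 (-5.72 ± 0.24) and Cox6a2 (-3.87 ± 0.17), a subunit of cytochrome oxidase. Lineage factors were closer. Lhx6 differed by 0.70 ± 0.11, Satb1 by 0.80 ± 0.07 and Sox6 by 0.62 ± 0.12, the last in 5 of 6 pools. Npas1 differed by 5.23 ± 0.33.

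**Figure D2:**
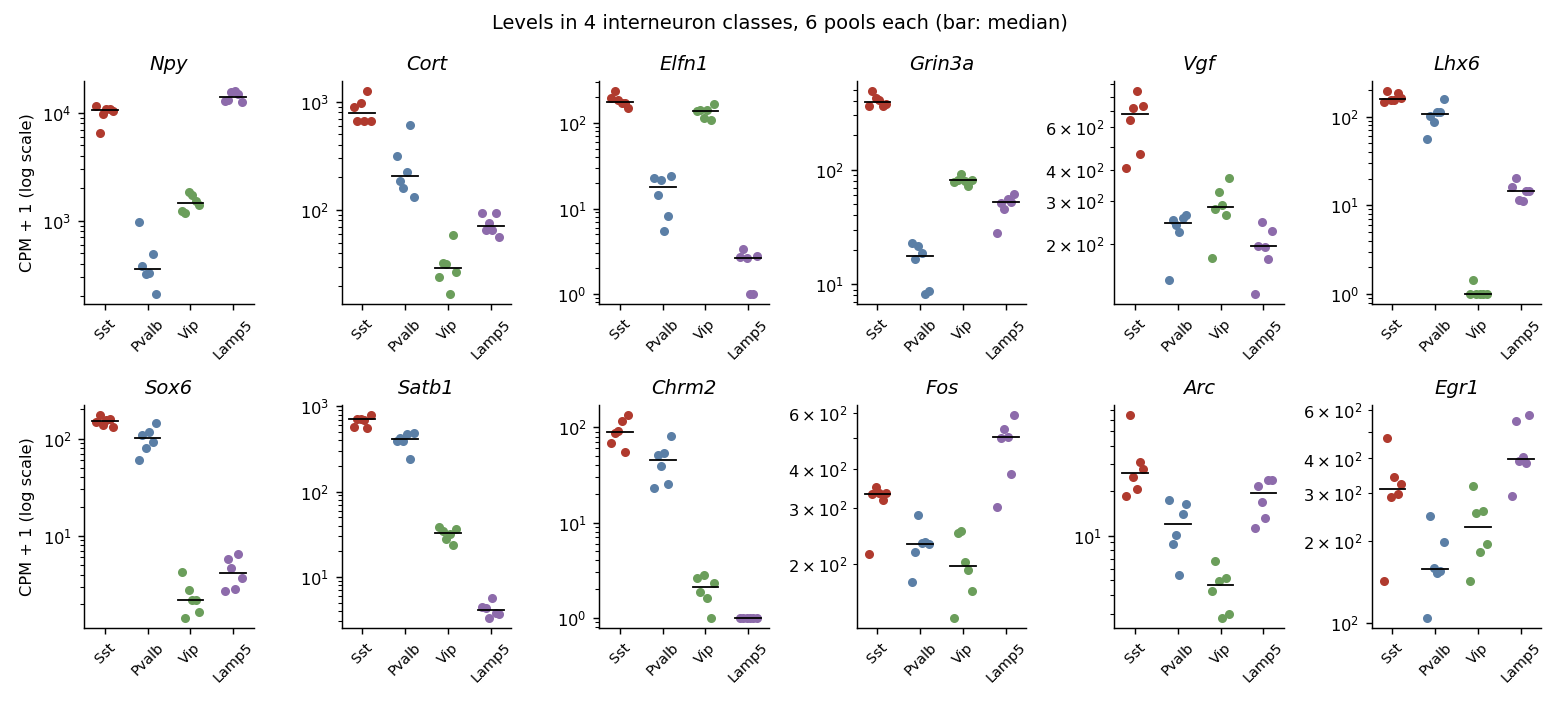
Levels of named genes in Sst, Pvalb, Vip and Lamp5 cells, as TMM-scaled CPM plus 1 on a log axis, with 1 point per pool and the median as a bar. The 6 Sst points for Npy lie above all Pvalb and Vip points and below all Lamp5 points, while those for Elfn1 and Grin3a lie above all Pvalb and Lamp5 points.

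Against Vip cells 2481 genes were higher in Sst cells (21.7%) and 2303 lower (20.2%). Here the lineage factors of the medial ganglionic eminence stood apart. Lhx6 had 911 UMIs in Sst cells and 1 in Vip cells, a ratio of 1714 (counting interval 307 to 67771). Sox6 was higher by 6.82 ± 0.19 and Satb1 by 4.50 ± 0.08. All 8 testable genes of the caudal ganglionic list were lower, with a median of -5.25. They included Adarb2 (-9.06 ± 0.22) and Prox1 (-8.12 ± 0.18), a transcription factor of that lineage. Crhbp stood at 935, 1173 and 1422 CPM in Sst cells and at 0, 1.31 and 3.28 CPM in Vip cells (9.99 ± 0.20, adjusted p = 7.85e-40). The calcium buffer Calb1 was higher by 7.21 ± 0.21 and the muscarinic receptor Chrm2 by 6.34 ± 0.21. Neuropeptides split, 5 higher and 6 lower of 11. Npy (2.74 ± 0.12) and Cort (4.77 ± 0.12) were higher, whereas Penk (-2.22 ± 0.10), Crh (-4.52 ± 0.13) and Cck (-6.74 ± 0.19) were lower. Cxcl14, a chemokine of caudally derived interneurons, was lower by -10.09 ± 0.30. Elfn1 stood at 109, 138 and 167 CPM in Vip cells, and the Sst pools overlapped them (0.48 ± 0.09, higher in 5 of 6 pools).

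Against Lamp5 cells 2628 genes were higher (23%) and 2480 lower (21.7%). Of the 14 listed neuropeptides 11 could be tested, 6 were higher in Sst cells and 3, Cck, Pnoc and Npy, were lower, with a median of 2.43. Npy stood at 12689.6, 14053 and 15866 CPM in Lamp5 cells, above every Sst pool (-0.52 ± 0.11, adjusted p = 6.56e-05), and lost its call in DESeq2 and without the pool block. Pdyn was higher in Sst cells by 8.02 ± 0.21, Penk by 5.32 ± 0.23 and Cort by 3.53 ± 0.11. Crhbp had 6436 UMIs in Sst cells and 1 in Lamp5 cells. Elfn1 was higher by 6.91 ± 0.20 and Satb1 by 7.79 ± 0.13. Chrm2 had no UMI in Lamp5 cells and was at least 262-fold higher in Sst cells. The nuclear factor Nfix (-7.47 ± 0.17), the complexin Cplx3 (-7.56 ± 0.15) and Ndnf (-6.39 ± 0.18) led the lower genes. Reln, a secreted protein of many Lamp5 cells, was lower by -0.77 ± 0.11.

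Some differences ran the same way against all 3 classes. Vgf, which encodes a secreted granin-like protein, was higher by 1.42 ± 0.09 against Pvalb, 1.16 ± 0.07 against Vip and 1.70 ± 0.08 against Lamp5 cells. Pam, the enzyme that amidates peptides, was higher by 1.53 ± 0.10, 1.44 ± 0.08 and 1.63 ± 0.08. Of the 15 listed genes of peptide processing and dense-core vesicles, 9 were higher and 2 lower against Pvalb, 6 and 4 against Vip, and 11 and 2 against Lamp5 cells. Over all genes tested 17.9%, 21.7% and 23% were higher and 15.5%, 20.2% and 21.7% lower, so the lower members are near or below those shares. Sstr1, a somatostatin receptor, stood at 12.5, 31.8 and 46.5 CPM in Sst cells. It was higher than in Vip cells by 1.41 ± 0.19 and than in Lamp5 cells by 1.58 ± 0.20, and Pvalb cells held 1 UMI of it. Sstr2 was lower than in Vip (-1.70 ± 0.30) and Lamp5 cells (-2.56 ± 0.27). Erbb4 was lower in Sst cells in all 3 comparisons. The comparisons share the Sst sums and are not independent.

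Immediate early genes are switched on within minutes of neuronal activity. Fos RNA was also found outside neurons. Summed over cells, it stood at 534 CPM in microglia-like, 313 in Sst and 159 in glutamatergic-like cells, and its source was not tested. Fos, the gene that drives the reporter in these mice, had 214, 333 and 349.9 CPM in Sst cells, 174, 231 and 286 CPM in Pvalb cells, 135, 196 and 253 CPM in Vip cells and 302, 500.4 and 589.9 CPM in Lamp5 cells. The log2 difference was 0.45 ± 0.10, 0.65 ± 0.08 and -0.58 ± 0.08 (adjusted p = 2.15e-04, 1.65e-09 and 7.15e-09), each in 6 of 6 pools. Arc, an activity-regulated synaptic protein, was higher than in all 3, by 1.63 ± 0.29, 3.09 ± 0.24 and 0.85 ± 0.18. Egr1 was higher than in Pvalb and Vip cells (0.90 ± 0.12 and 0.47 ± 0.09) and lower than in Lamp5 cells (-0.47 ± 0.09). Without the pool block, Fos against Pvalb cells and Egr1 against Vip and Lamp5 cells lost their call. Of the 19 listed genes, 13 were higher and 2 lower against Pvalb, 14 and 1 against Vip, and 6 and 9 against Lamp5 cells. Over all genes the higher shares were 17.9%, 21.7% and 23% and the lower 15.5%, 20.2% and 21.7%, so the 2 and 1 lower members and the 6 higher against Lamp5 cells are near or below what all genes gave. The list medians were 0.59, 0.79 and -0.24, beside 0.03, -0.00 and -0.01 over all genes. Heat shock and dissociation genes, which cell preparation can raise, numbered 1 higher and 3 lower of 13 against Pvalb, 4 and 1 against Vip, and 7 and 2 against Lamp5 cells. Apart from the 7 higher against Lamp5 cells, these counts lie near or below the same shares. Their part in the result was not tested.

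Across the 4741 GABAergic cells, the genes whose share of a cell's UMIs ranked most like that of Sst were Lypd6 (Spearman rho 0.62), Crhbp (0.60), Lypd6b (0.60), Satb1 (0.58), Lhx6 (0.58) and Calb1 (0.52), out of 14383 genes. Lypd6 and Lypd6b encode membrane-anchored modulators of nicotinic receptors. The most opposite were Nfix (-0.43), Nfib (-0.42) and Adarb2 (-0.41). These cells share libraries and differ in depth, so the values are descriptive.

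Within the Sst class, the listed subtype markers varied widely. At least 2 UMIs of Npy were held by 73.0% of the 560 cells, of Crhbp by 51.6%, Calb1 by 47.0%, Cort by 43.6%, Reln by 41.1%, Nos1 by 30%, Chodl by 19.5%, Pdyn by 18.4%, Penk by 18.2% and Calb2 by 17.5%. Th, the dopamine-synthesis enzyme, reached 8.75%, Cbln4 8.04%, Crh 6.61%, Myh8 5.54%, Tac1 4.11% and Hpse 1.61%. The share ran for Chodl from 14.4% in control 2 to 24.1% in late 2, and for Npy, from 63.3% to 80%. For Calb1 it ran from 26.2% in control 1 to 60.8% in early 1, and for Reln from 21.5% in control 1 to 58.8% in control 2. Median depth in these pools was 6253 UMIs a cell in control 1, 11739 in control 2 and 18206 in early 1, and its part in these shares was not tested. Thinned to 2000 UMIs a cell, with 9 shallower cells left out, at least 1 UMI of Npy was found in 70.4% of cells and of Chodl in 11.6%, beside 79.5% and 22.9% unthinned. A Chodl UMI was found in 0 of 10994 microglia-like cells, which allows a share of up to 0.0273%.

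Cells with at least 2 Chodl UMIs shared a set of markers. There were 109 of them, 14 to 24 in each pool, and 432 cells had no Chodl UMI. Every Chodl-positive cell held at least 2 UMIs of Nos1, the neuronal nitric oxide synthase, and of Npy, against 9.26% and 65.0% of the Chodl-negative cells. Crhbp was held by 99.1% against 37.7% and Cort by 83.5% against 32.6%. Tacr1, the substance P receptor, was held by 49.5% against 0.694%. Reln, Th and Crh were held at that level by 0 of the 109, which allows a share of up to 2.75%, against 53.2%, 11.3% and 8.56% of the negative cells. Calb1 was held by 0.917% against 60.6%. Of the 168 Sst cells with at least 2 Nos1 UMIs, 109 were Chodl-positive. The positive cells were deeper, with a median of 11805 UMIs against 7862.5, and held more Sst (23030 against 14681.5 CPM).

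**Figure D3:**
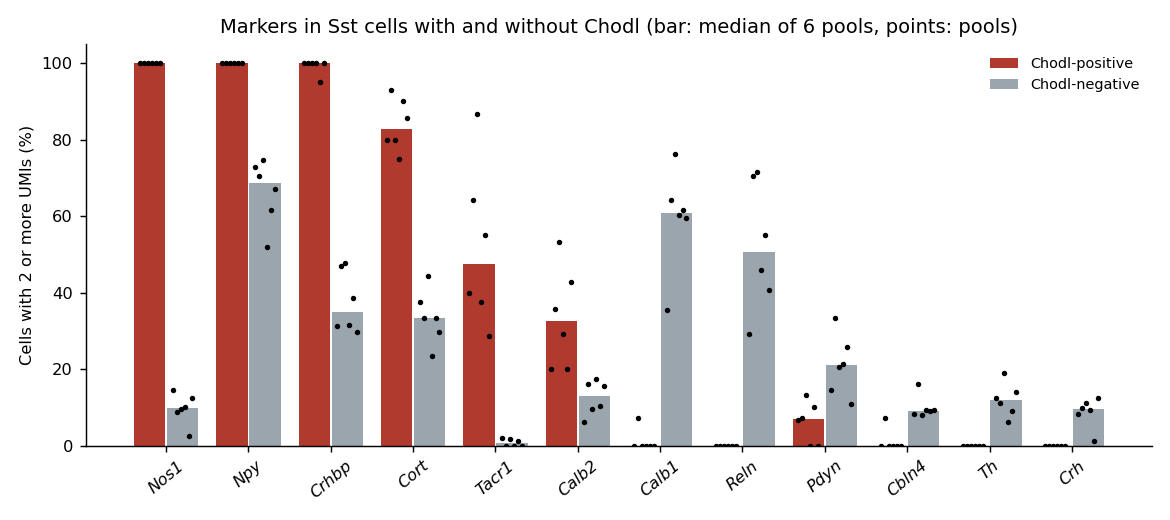
Percent of Chodl-positive (at least 2 UMIs) and Chodl-negative (0 UMIs) Sst cells that hold at least 2 UMIs of each subtype marker, with 1 point per pool and bars at the median of the 6 pools. Nos1 and Npy reach 100% of the positive cells in all 6 pools, while Reln stays at 0%.

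The 2 subsets were compared over the 6 pools with the pool as a block. Of 6919 genes, 1367 were higher in Chodl-positive cells (19.8%) and 1055 lower (15.2%). Nos1 stood at 2837, 3539.9 and 4214 CPM in positive and at 29.6, 60.4 and 343 CPM in negative cells (5.47 ± 0.17, adjusted p = 1.10e-41). Npy stood at 23239.5, 27634 and 33793 CPM against 1793, 3045 and 4634 CPM (3.26 ± 0.10, adjusted p = 4.73e-42). The pools of the subsets did not overlap for either. Tacr1 was higher by 5.21 ± 0.26, Crhbp by 3.21 ± 0.09 and Penk by 2.69 ± 0.15. The peptide-processing enzymes Pcsk2 (2.93 ± 0.14) and Pam (1.98 ± 0.09) were higher too. Of the 13 testable processing genes, 7 were higher and 3 lower. Among the genes highest over the negative cells were Ndst4 (7.003 ± 0.33), an enzyme of heparan sulfate synthesis, Adgrg6 (6.97 ± 0.33), Slc5a7 (6.72 ± 0.33), the high-affinity choline transporter, and the Wnt modulator Sfrp1 (6.52 ± 0.26). Cort differed by only 0.61 ± 0.10.

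Several genes of the other Sst cells were not detected in the Chodl-positive cells. Reln had 0 UMIs there and 1433 in the negative cells, at least a 171-fold difference. The transcription factors Npas1 and Nr2f2 were at least 92.6-fold and 38.7-fold lower, the zinc transporter Slc30a3 71.6-fold, Th 43.7-fold, Tac1 40.8-fold and Crh 24.8-fold. These bounds count UMIs as independent, although few cells held some of the genes. Counted by cells, 0 of the 109 allows a share of up to 2.75%. At least 2 UMIs were held by 11.3% of negative cells for Th and 8.56% for Crh. A Tac1 UMI was found in 5.54% of all Sst cells. Pnoc, the nociceptin precursor, had 1 UMI against 555, a ratio of 198.7 (counting interval 35.5 to 7863). Calb1 was lower by -6.84 ± 0.24, Grm5, a metabotropic glutamate receptor, by -5.23 ± 0.25, Zeb2 by -5.62 ± 0.30 and Pdyn by -3.23 ± 0.20. Elfn1 had 26.1, 53.0 and 72.0 CPM in positive against 191, 216 and 280.0 CPM in negative cells (-2.06 ± 0.16). Lhx6 did not pass the test (0.06 ± 0.14, adjusted p = 0.789), Sox6 was higher (1.16 ± 0.12) and Satb1 lower (-1.28 ± 0.10).

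The subsets differed in their GABA-A receptor subunits. Gabra2 stood at 130.3, 266 and 373 CPM in positive against 22.5, 35.5 and 40.5 CPM in negative cells (2.85 ± 0.15, adjusted p = 3.14e-27). Gabrg1 was higher by 3.45 ± 0.22 and Gabra3 lower by -3.15 ± 0.28. Of the 10 testable subunits 3 were higher and 6 lower, and of 10 neuromodulator receptors 5 were higher and 2 lower, beside 19.8% higher and 15.2% lower over all genes. The 3 higher subunits and the 2 lower receptors are counts near those shares. Chrm2 had 139, 298 and 359 CPM in positive and 12.0, 28.4 and 44.9 CPM in negative cells (3.19 ± 0.15), and the adrenergic receptor Adra1b was higher by 2.47 ± 0.21. Channels were mostly lower, 14 of 24 with 6 higher, among them Kcnq3 (-2.42 ± 0.16) and Kcnc1 (-1.20 ± 0.12). The sodium channel Scn3a was higher by 1.94 ± 0.16.

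**Figure D4:**
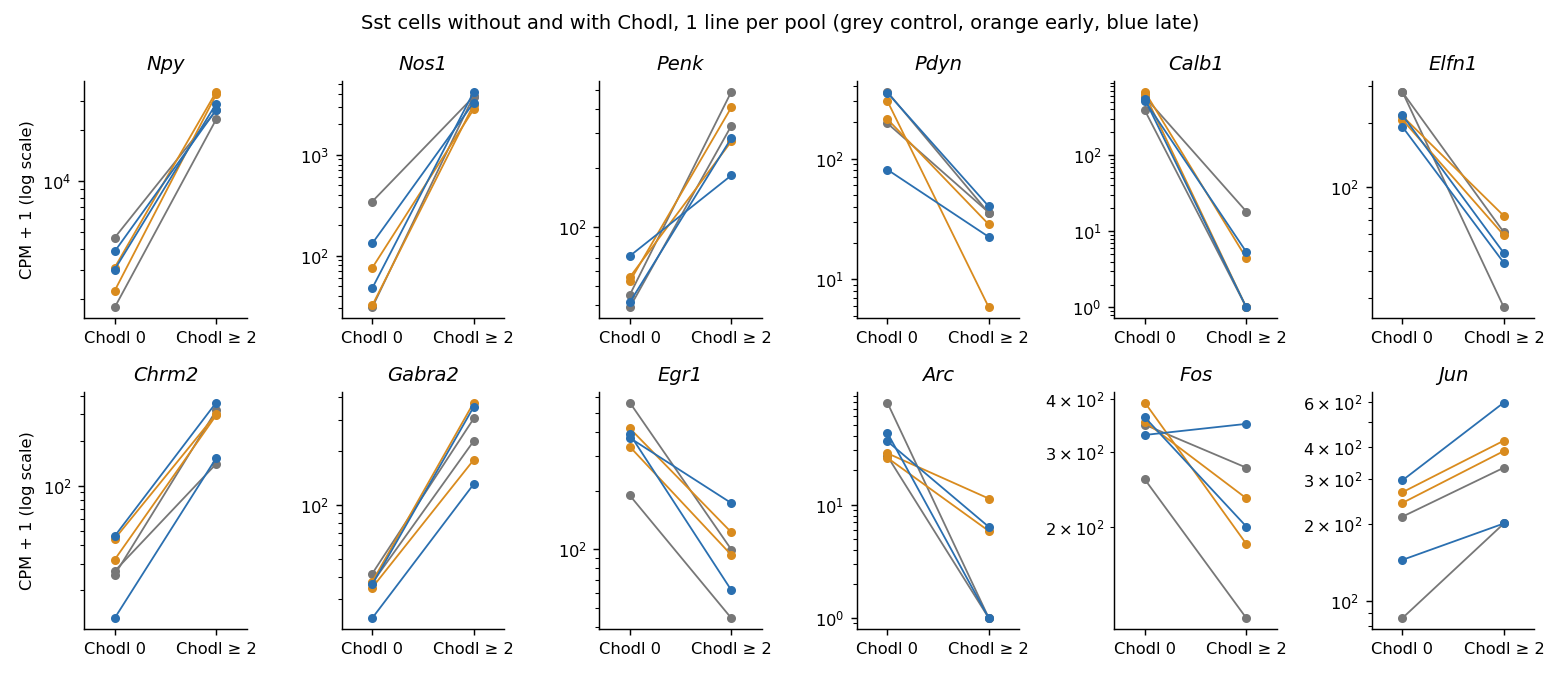
TMM-scaled CPM plus 1 (log axis) of named genes in Sst cells with 0 and with at least 2 Chodl UMIs, joined by a line for each of the 6 pools. Nos1, Npy, Penk, Chrm2 and Gabra2 are higher and Calb1, Elfn1, Arc and Egr1 lower in the positive cells of every pool, while Fos is lower in 5 of 6.

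Immediate early genes were lower in Chodl-positive cells. Of the 19 listed, 15 could be tested, 12 were lower and 1 was higher, with a median of -1.01 beside 0.02 over all genes. Egr1 had 43.4, 95.7 and 171 CPM in positive against 188, 379 and 563 CPM in negative cells (-1.96 ± 0.14, adjusted p = 8.22e-21). Arc had 0, 2.43 and 10.3 CPM against 24.8, 31.2 and 78.2 CPM. Fos was lower by -0.60 ± 0.12 in 5 of 6 pools, late 2 being the exception. Junb (-1.29 ± 0.15) and Fosb (-0.83 ± 0.14) were lower as well, and Nr4a2 had no UMI in the positive cells. Jun, which lost its call without the pool block, was the exception, at 199.8, 357 and 595 CPM against 84.7, 226 and 295 CPM (0.74 ± 0.10). Heat shock and dissociation genes numbered 3 higher and 1 lower of 10, led by Hsp90ab1 (0.42 ± 0.07), near the 19.8% and 15.2% of all genes, and their part in the result was not tested. Among the cells of at least 5000 UMIs, 2292 genes were called in all, and Egr1 differed by -1.98 and Fos by -0.56.

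A smaller subset held at least 2 UMIs of Calb2, the calcium buffer calretinin, in 98 cells, of which 36 were also Chodl-positive. The Calb2-negative cells numbered 428 over all pools. Control 1 had only 6 positive cells and was left out of the comparison, together with its 52 negative cells. Over the other 5 pools, 332 of 7845 genes were higher (4.23%) and 326 lower (4.16%). Cbln4, a secreted synaptic organiser, stood at 197, 48.7, 126, 112 and 67.9 CPM in the positive cells of control 2, early 1, early 2, late 1 and late 2. In the negative cells it stood at 18.6, 8.64, 6.77, 20.5 and 6.06 CPM, below all of these (3.12 ± 0.26, adjusted p = 8.94e-15). Slc5a7 (3.15 ± 0.26), Oxtr, the oxytocin receptor (2.16 ± 0.24), the transcription factor Maf (1.56 ± 0.13) and Nos1 (1.53 ± 0.13) were higher. Slc5a7 was also among the genes highest in Chodl-positive cells, which made up 36.7% of Calb2-positive and 13.6% of Calb2-negative cells. Its value in cells without a Chodl UMI is not given here. Spp1 had no UMI in Calb2-positive cells and was at least 42.1-fold lower, Th at least 32.9-fold and Myh8 at least 9.50-fold. These bounds again count UMIs. Of all 428 Calb2-negative cells, 11.2% held at least 2 UMIs of Th and 7.01% of Myh8. Of the 19 listed immediate early genes 17 could be tested, 7 were higher and 1 lower, among them Jun (0.90 ± 0.11) and Egr1 (0.39 ± 0.11, adjusted p = 0.0185), of which Egr1 did not pass without control 2, early 2 or late 1. Fos did not pass (0.22 ± 0.11, adjusted p = 0.280).

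Since the 2 positive subsets overlap, the Calb2 comparison was repeated in cells without a Chodl UMI, an alternative chosen after seeing the data. With 3 pools left, 370 genes passed. Cbln4 differed by 4.45, Oxtr by 3.15 and Maf by 2.29, all past the test. Nos1, which every Chodl-positive cell held, no longer passed (1.22, adjusted p = 0.0537). Cort, which did not pass over all cells (-0.22 ± 0.12, adjusted p = 0.313), then differed by -3.18 (adjusted p = 8.28e-18). Fos (0.70), Arc (1.34), Npas4 (1.03) and Elfn1 (1.07) then passed too. Cells with at least 2 UMIs of Tac1 (23 cells) or Hpse (9 cells) were too few per pool for a test.

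Training was compared next. No gene of 9810 passed at an adjusted p of 0.05 in any of the 3 comparisons of stages (0% each; edgeR with stage and barcode class as terms). The unadjusted p was under 0.05 for 353 genes between early and control pools, 402 between late and control and 231 between late and early. DESeq2 also called 0 genes in each, with 42, 46 and 23 at that unadjusted p. With either tool, every count at that unadjusted p lay below the share of 0.05 that chance alone would give. In simulated data of this design, the late against control fit recovered 52% of genes changed 2-fold and 97% of those changed 4-fold. Only genes with higher mean counts were changed there, and the simulated pools did not differ by barcode class or batch. The 52% and 97% therefore do not cover genes of low count or differences of that kind. Fos stood at 211 and 320.0 CPM in the control pools, 343 and 326 in early and 310.2 and 325 in late. Control 1 was the low value, and the other 5 pools lay close together. Control 1 held 63 Sst cells from the right hemisphere and only 2 from the left. It also had the fewest summed UMIs, at 438670 beside 726209 to 1438684 in the other 5 pools. The log2 difference was 0.18 ± 0.20 for early and 0.26 ± 0.19 for late against control (adjusted p = 0.999 for both). Arc stood at 17.2 and 61.2 CPM in control, 23.1 and 18.96 in early and 29.4 and 26.2 in late pools, all trained pools lying between the controls. Egr1 stood at 139.8 and 457.2 CPM in control, 282 and 333 in early and 289 and 314 in late pools, again between the controls.

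Elfn1 stood at 194 and 227 CPM in control, 180.0 and 165 in early and 166 and 147 in late pools, and did not pass the test (-0.31 ± 0.20 and -0.43 ± 0.19, adjusted p = 0.999 for both). Npy stood at 11295 and 6207 CPM in control, 9643 and 10541 in early and 10686 and 10182 in late pools. Vgf stood at 402 and 616 CPM in control, 700.5 and 821 in early and 456 and 715 in late pools. The 18 testable immediate early genes had a median log2 difference of 0.16 for early and 0.30 for late pools, each set against control, and of 0.29 between late and early pools. Over all genes the median was 0.01, 0.01 and -0.00. Against control, the 11 testable heat shock and dissociation genes had medians of 0.26 and 0.42 in early and late pools. The 9 microglia markers, all detected, summed to 116 to 125 CPM in control, 78.6 to 135 in early and 106 to 362 in late pools. The part of either list in the result was not tested. Within batches, Fos was 310.2 CPM in late 1 against 211 in control 1, and 343 in early 1 against 320.0 in control 2. Elfn1 was 166 against 194, and 180.0 against 227 CPM. Each batch held 1 pool a stage, so no test within a batch could be had.

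**Figure D5:**
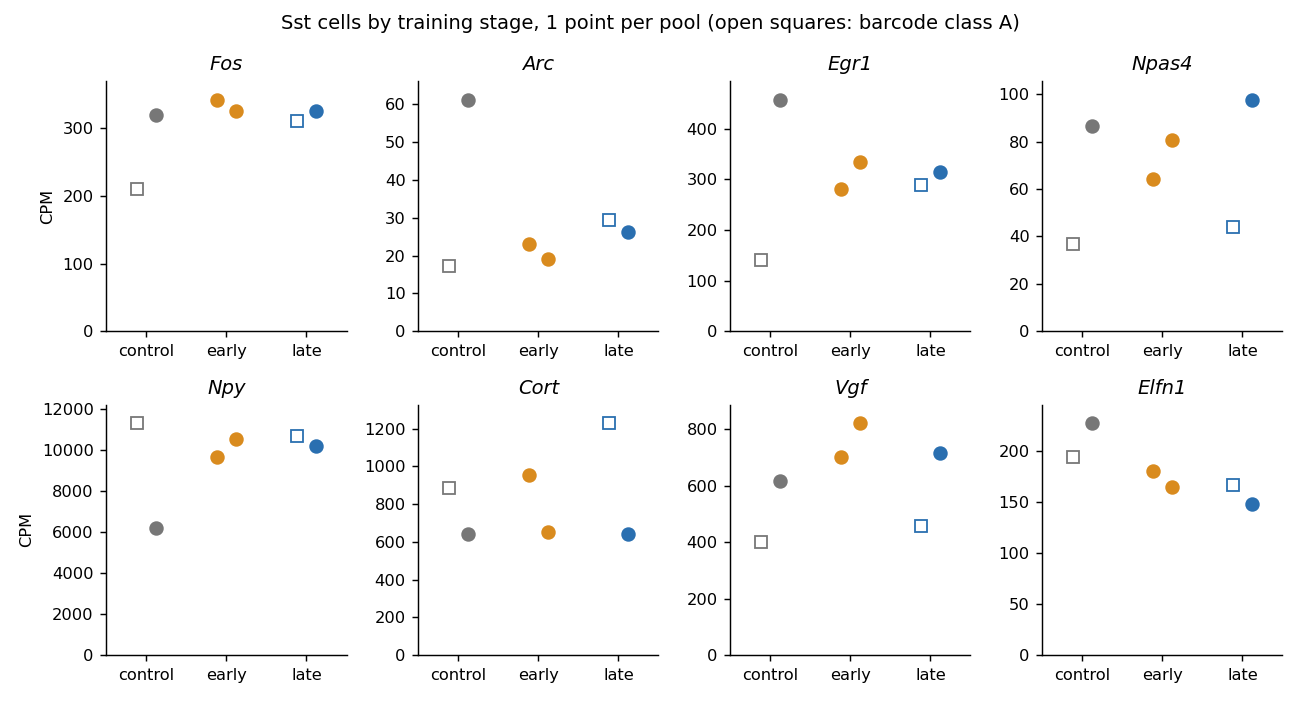
TMM-scaled CPM of named genes in the Sst cells of each pool, 2 pools per stage, with open squares for the pools of barcode class A. For Egr1 and Arc the controls lie on either side of all 4 trained pools, at 139.8 and 457.2 CPM for Egr1, while for Elfn1 the controls lie close together, at 194 and 227 CPM.

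Leaving out any 1 pool, which leaves 1 residual degree of freedom, gave 4 to 26, 9 to 59 and 1 to 18 called genes in the 3 stage comparisons. Barcode class A held only control 1 and late 1, so in several of these fits a stage rested on 1 pool, which was assumed to vary like the pools of the other stages. Without control 1, late 1 or late 2, the early against control difference was that of the early pools against control 2 alone. Arc, highest in control 2, passed there, at -1.50 to -1.51 in what is the same comparison each time. Without late 2, late 1 was the only late pool and the class term was the gap between the controls. Egr1 then passed between late and early pools (1.62), although its 289 CPM in late 1 lay between the 282 and 333 CPM of the early pools.

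Pdyn stood at 139.8 and 282 CPM in control, 168 and 218 in early and 256 and 64.7 in late pools, so that late 2 was the low pool and late 1 lay between the controls. With all 6 pools it did not pass between late and control pools (-0.61 ± 0.45, adjusted p = 0.999). Without control 1 or late 1 it passed at -2.13 and -2.12, and both values compare late 2 with control 2, 1 pool against 1. Between late and early pools it passed at -1.56 to -1.57 without control 1, control 2 or late 1, each time late 2 alone against the early pools. Between early and control pools it passed without control 2 (2.42, adjusted p = 8.63e-06), where the class term was the gap between late 1 and late 2.

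Between the hemispheres of the 4 trained pools, 5 of 7644 genes (0.0654%) passed, all lower in the contralateral hemisphere. They were Ccl4, a chemokine of microglia, Apoe, an apolipoprotein of glia, and the haemoglobin genes Hbb-bt, Hba-a1 and Hba-a2. Ccl4 stood at 3.89, 5.19, 23.4 and 3.24 CPM contralaterally in early 1, early 2, late 1 and late 2, and at 0, 202, 218 and 70.8 CPM ipsilaterally (-3.51 ± 0.34, adjusted p = 3.76e-08). The hemispheres overlapped for all 5 genes. The 3 richest of all 560 cells held 95.2% of the Hbb-bt UMIs, 97.4% of Hba-a1 and of Hba-a2, 64.7% of Ccl4 and 43.3% of Apoe. Microglia markers summed to 24.7 to 253 CPM contralaterally and 58.8 to 523 CPM ipsilaterally, beside 36498.5 CPM in microglia-like cells, and their part in the result was not tested. None of the 5 passed without the doublet-marked cells, in DESeq2 or without the pool block. Fewer genes could be tested without the doublet-marked cells (7362) and without the block (6773), and not all of the 5 were tested in each. Leaving out 1 pool gave 1 to 10 genes, the fewest without late 1 and the most without late 2. Most of the genes lost without late 1 had too few counts to be tested there.

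Fos was 302, 269.8, 324 and 343 CPM contralaterally and 408, 393, 303 and 329 CPM ipsilaterally (-0.22 ± 0.11, adjusted p = 0.968). Npy differed by 0.06 ± 0.11. The share of Sst cells among GABAergic cells was 11.8%, 13.8%, 16.3% and 10.7% contralaterally and 8.37%, 13.8%, 9.61% and 10.7% ipsilaterally. The difference was 3.43 and 6.69 percentage points in early 1 and late 1 and 0.0714 and 0.0409 in early 2 and late 2. The Chodl-positive share of Sst cells was 14.3%, 23.4%, 20.9% and 29.7% against 24.3%, 16.0%, 16.2% and 20%, higher contralaterally in 3 of 4 pools.

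The reporter was read from the wpre and tdtomato features, which the authors had added to the reference. At least 1 such UMI was found in 121 of the 560 Sst cells (21.6%), all but 1 of the 174 UMIs being wpre. The share was 18.5% and 20.6% in control, 40.5% and 14.8% in early and 24.04% and 14.9% in late pools. Early 1, the deepest pool, was the highest. Thinned to 2000 UMIs a cell, it stood at 5.06%, within the 2.06% to 7.69% of the other 5 pools. The mean was 27.7% ± 18.1 (SD, n = 2) in early, 19.5% ± 6.43 in late and 19.5% ± 1.53 in control (exact permutation test, two-sided, p = 1 for each pair, smallest possible 0.333). Early minus control was 8.13 percentage points, and 0.96 when thinned. Late minus early was -8.18 points, and -1.28 when thinned. Within batches the unthinned share was 24.04% in late 1 against 18.5% in control 1, and 40.5% in early 1 against 20.6% in control 2. After the same thinning, 5.08% of Sst cells held the reporter, beside 7.70% of microglia-like and 6.91% of glutamatergic-like cells. Unthinned, these were 7.25% (median 1867 UMIs) and 21.2% (median 8338 UMIs). By pool, the thinned share was lower in Sst than in microglia-like cells in 5 of 6, early 2 being the exception at 6.61% against 5.79%. Since microglia-like cells held a similar share, a reporter UMI is not read here as labelling of a cell, and what it stems from was not tested.

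Sst cells with and without a reporter UMI were compared over the 6 pools all the same. Of 8599 genes 22 were higher in positive cells (0.256%) and 5 lower (0.0581%). Only Cygb and Lingo1 had pools that did not overlap. Cygb encodes cytoglobin, a haem protein, and was detected in 81.4% of all Sst cells. It stood at 549.8, 738 and 1001 CPM in positive and 387, 508 and 532 CPM in negative cells (0.65 ± 0.10, adjusted p = 6.74e-06). Lingo1 stood at 8.14, 17.4 and 22.1 CPM against 31.5, 45.1 and 52.6 CPM (-1.27 ± 0.28, adjusted p = 0.0117). Npy (0.53 ± 0.08), Nos1 (0.46 ± 0.09), Tacr1 (0.89 ± 0.20) and Chodl (0.74 ± 0.14) were higher. Of the 19 listed immediate early genes 18 could be tested and none passed. The reporter share was 31.3% ± 11.4 in Chodl-positive and 20.3% ± 9.98 in Chodl-negative cells (SD, n = 6), higher in 5 of 6 pools (exact permutation test, two-sided, p = 0.0938, smallest possible 0.0313). Thinned to equal depth it was 6.61% against 5.001% (p = 0.594, exact permutation test). None of the 27 genes passed without the pool block, where 7071 genes could be tested. Lingo1, Nos1, Tacr1 and Chodl did not pass in cells of at least 5000 UMIs.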

How the data were processed

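Single cells of 12 motor cortex libraries were analysed from the UMI count matrices that the authors deposited. Per the submitters' processing notes these were made with Cell Ranger 3.1.0 on GRCm38. Each matrix was read with the features as deposited, no per-sample column was left unused, and coordinates are those of GENCODE M21. Cells were kept at 1000 UMIs, 500 genes and at most 20% mitochondrial UMIs. Doublets were marked with Scrublet (scanpy 1.11.5) and kept. No clusters were made, and microglia-like and glutamatergic-like cells were chosen by marker UMIs. The members and the gene lists were chosen with earlier results of these data known.

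Counts were summed per pool and class or subset (at least 20 cells a pool, or 10 for a subset or hemisphere) and tested with edgeR 4.0.16 (quasi-likelihood, TMM scaling, filterByExpr, Benjamini-Hochberg) in R 4.3.3, with the pool as a block where both sides came from the same pools. Genes were named by rule: the listed genes, and a choice of called genes. In the class, Chodl and Calb2 comparisons these were up to 10 per direction by size of change. Their pools did not overlap and their mean was at least 5 log2 CPM. For the hemispheres and the reporter, called genes could be named whether or not their pools overlapped. A few listed genes were then chosen for the text after their values were seen. Folds against 0 UMIs use a floor of 3 counts over the group, and ratios with 1 to 3 UMIs carry exact 95% counting intervals. Both take UMIs as independent and do not cover the spread between cells. Intervals cover counting error only. On simulated data without gene differences between pools, the Chodl fit recovered 97% of 2-fold and 100% of 4-fold changes. Only genes with higher mean counts were changed in the simulations.

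Alternatives were DESeq2 1.42.0, no filter, no block, stricter cells, doublets removed, other thresholds and each pool left out. The splits in cells of at least 5000 UMIs, with doublets removed or without Chodl UMIs were chosen after seeing the data. A few genes are not reported here.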

Additional observations from a re-analysis of the deposited data

Results flagged for a closer look

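Of 109 groups of 4 to 10 values, 11 held 1 value that stood apart from the others by Dixon's test at 95%, where chance gives about 1 in 20. The share of Sst cells among GABAergic cells was 7.69% in the left library of control 1, which held 2 Sst cells, and 16.3% in the contralateral library of late 1. The other 9 are log2 differences within 1 pool, computed with a prior count of 2. Against Pvalb cells they were Pcdh18 at 4.16 in control 2 and Pde5a at -5.83 in control 1. Against Vip cells they were Lhx6 at 6.72 and Sp8 at -3.50 in late 1, and Nxph1 at 6.66 in control 2. Against Lamp5 cells Rbp4 stood at 8.77 in control 1. Between Chodl-positive and Chodl-negative cells they were Tac1 at -2.84 in control 2 and Nr2f2 at -3.33 in control 1. Between Calb2-positive and Calb2-negative cells Dab1 stood at -2.17 in early 1.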

How the results depend on the processing

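Of the called genes recomputed under the alternatives, 53 of 57 kept their call without each pool in turn against Pvalb cells, 53 of 53 against Vip, 51 of 51 against Lamp5, 57 of 58 in the Chodl split, 43 of 48 in the Calb2 split and 6 of 12 in the reporter split. Under the other settings these were 51, 51, 49, 53, 31 and 0. A sign changed for Adarb2 against Pvalb cells (0.54 with at least 5 UMIs of the other marker, and -2.96 to 1.34 with 1 pool left out, the highest without control 2), for Reln (0.12), Gabra2 (-0.37) and Chrm2 (-0.58) in the Calb2 split without Chodl UMIs, and for Hba-a1 in the reporter split with DESeq2 (-0.0115). Pdyn, not called between early and control pools with all 6, ranged from -0.56 to 2.42 with 1 pool left out and was called at the highest value, without control 2. With no replicate block, where the pairing is by pool, the counts of called genes fell to 2296, 2538 and 3007 against Pvalb, Vip and Lamp5 cells, from 3816, 4784 and 5108. They fell to 1118 from 2422 for Chodl, 214 from 658 for Calb2, and 0 for the reporter and the hemispheres, from 27 and 5. Fos against Pvalb, Egr1 against Vip and Lamp5, Npy against Lamp5, and Cort and Jun in the Chodl split lost their call there. DESeq2 called 1525 genes for Chodl, 299 for Calb2, 9 for the reporter and 0 between hemispheres, and Npy against Lamp5 cells was lost. Without Chodl UMIs, 370 genes were called for Calb2. In cells of 5000 UMIs or more, 15 were called for the reporter. With no filter on low counts, 14, 25 and 9 genes were called in the order early and control, late and control, late and early, 14 between hemispheres and 41 for the reporter. Stricter cell filters gave 1 gene for late against control, and 0 of the 7362 genes tested passed between hemispheres with doublets removed. Leaving out 1 pool gave 4 to 26, 9 to 59 and 1 to 18 genes for the stages and 1 to 10 for the hemispheres.

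The difference in share, in percentage points, changed sign under several settings. Early minus control was -0.277 with stricter cell filters, -0.227 with doublets removed, and -1.61 to 2.27 with 1 pool left out. Late minus control was -0.426 with doublets removed, -0.343 as a percent of all cells and -0.809 to 1.56 with 1 pool left out. Late minus early was -0.199, -0.379 and -1.895 to 1.98. For the reporter share, leaving out 1 pool gave -4.70 to 21.0 for early minus control, -4.60 to 4.50 for late minus control and -21.0 to 4.65 for late minus early. The cause was not tested in any of these. With 2 pools a stage, 52% of 2-fold changes were recovered in simulated late against control data, beside 87% for Sst against Pvalb. Both values hold only for genes with higher mean counts.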

Other observations

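The files also carry a feature named Neo, which was detected in 8.39% of Sst cells and 3.52% of microglia-like cells, at median depths of 8513 and 1867 UMIs. Against Pvalb, Vip and Lamp5 cells, the 17 listed late activity-response genes numbered 8, 7 and 10 higher and 4, 5 and 3 lower of 14 that could be tested. Over all genes, 17.9%, 21.7% and 23% were higher and 15.5%, 20.2% and 21.7% lower, so that the 3 lower genes against Lamp5 cells are no more than that share.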
